A study of Mus musculus with 14 samples.

Results

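The genes described here encode the mitochondrial respiratory chain and ATP synthase, in the nuclear and in the mitochondrial genome. They are all rows of the count table whose symbol begins with Nduf, Uqcr, Cox4 to Cox8, Atp5, mt-Nd, mt-Co, mt-Cyt or mt-Atp, or is Sdha, Sdhb, Sdhc or Sdhd, with 14 symbols marked as pseudogenes (-ps) left out. The rule found 111 of 55486 genes, 98 nuclear and 13 mitochondrial. By symbol, 46 are subunits of complex I, 8 are complex I assembly factors (Ndufaf), 4 belong to complex II, 9 to complex III, 24 to complex IV and 20 to complex V, the ATP synthase. Ndufa4 and Ndufa4l2 are counted with complex IV, where they are now placed. Of the nuclear members, 4 are processed pseudogenes in the files (Ndufa11b, Ndufb4c, Ndufs6b and Cox6c2), and Atp5o stands under a pair of Ensembl IDs.

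The study sequenced polyadenylated RNA of mouse CD8 T cells, activated with antibodies to CD3 and CD28 on day 0 and grown for 8 days, to ask what the loss or the inhibition of the histone methyltransferase DOT1L does to their transcriptome. The KO group (3 libraries) is heterozygous for CreERT2, homozygous for DOT1L-flox and heterozygous for OT-I. The WT group (3 libraries) is heterozygous for CreERT2 and OT-I and wild type for DOT1L-flox, and both groups received 4-hydroxytamoxifen (10 nM) on day 0. The EPZ and DMSO groups (4 libraries each) are wild type for CreERT2 and DOT1L-flox and heterozygous for OT-I, and received the DOT1L inhibitor EPZ-5676 or 0.1% DMSO every 2 days. The inhibitor dose is 10 mM in the treatment label and 10 uM in the library names, and nothing in the files settles it. OT-I is a transgenic T cell receptor that all groups carry, CreERT2 is a recombinase switched on by tamoxifen, and neither the promoter that drives it nor the age of the mice is stated in the sources used here. Library names tie EPZ and DMSO together by animal (WT1 to WT4), so that each animal supplied a library to both groups.

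Library totals ran from 5643724 to 20586093 counts. Transcripts that report genotype and sex did not all match the KO and WT labels. Dot1l itself was higher in the libraries labelled KO, at 218, 200.5 and 189.5 CPM (counts scaled to library size, with TMM factors) against 134, 139.9 and 133 CPM in those labelled WT, and whole-gene counts cannot show whether a floxed part was deleted. Xist and Ddx3y went against the labelled sex in 4 of the 6 KO and WT libraries and in 0 of the 8 EPZ and DMSO libraries. KO and WT therefore mean, throughout, the libraries labelled so. The transcripts of a CD8 T cell list (Cd3d, Cd3e, Cd3g, Cd8a, Cd8b1, Cd2) were present in all groups, but summed to 1720 to 1770 CPM in KO and 2890 to 3160 CPM in WT, and to 2260 to 2430 CPM in EPZ and 3210 to 3520 CPM in DMSO. Cd8a averaged 115 CPM in KO and 705 in WT, and 398 CPM in EPZ and 834 in DMSO. A list of other cell types' markers moved as well: the NK cell genes Ncr1 and Klrb1c summed to 71.5 to 88.3 CPM in KO and 8.6 to 19.7 in WT, and to 20.2 to 32.3 CPM in EPZ and 3.27 to 5.33 in DMSO. The 7 myeloid genes summed to 35.9 to 51.9 CPM in KO and 13.0 to 16.8 in WT. Itgax made up most of the sum in KO, at 26.3 to 36.7 CPM, and stood at 6.96 to 9.48 in WT. Itgam, at 2.83 to 5.93 CPM in KO and 0.242 to 1.46 in WT, and Cd14, at 0.633 to 1.9 CPM in KO and 0 to 0.0515 in WT, did not overlap either. Lyz2 stood at 0.0533 to 0.224 CPM in KO and 0 in WT, and Csf1r at 0 in KO and up to 0.0515 in WT. Cd68 did not rise, at 5.70 to 7.16 CPM in KO and 4.58 to 8.10 in WT, with overlap. The myeloid genes summed to 10.2 to 11.1 CPM in EPZ and 7.7 to 12.1 in DMSO. The markers of CD4 and regulatory T cells (Cd4, Foxp3 and Cd40lg) summed to 1.52 to 2.29 CPM in KO and 4.11 to 9.52 in WT. In EPZ they summed to 4.47 to 9.11 CPM and in DMSO to 12.5 to 20.9. Foxp3 averaged 1.25 CPM in KO and 6.28 in WT, and 5.28 in EPZ and 12.6 in DMSO. Cd4 overlapped between KO and WT, at means of 0.505 and 0.424 CPM, and averaged 1.36 in EPZ and 3.36 in DMSO, without overlap. The B cell, erythroid and fibroblast lists stayed at or below 1.39 CPM in every library. The part of these shifts in the results was not tested, and in such bulk samples fewer cells of a type and less RNA per cell cannot be told apart.

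The respiratory chain carries electrons from NADH and succinate to oxygen through complexes I to IV, pumping protons across the inner mitochondrial membrane, and ATP synthase uses the returning protons to make ATP. Complexes I, III, IV and V combine subunits made from nuclear genes with a core made inside the mitochondrion from its own DNA, while complex II is wholly nuclear. Mitochondrial DNA is transcribed as long precursors from each strand, which are cut into single mRNAs and mostly polyadenylated, so a poly(A) library contains them. In T cells, activation is known to be followed by growth of the mitochondrial network, and memory CD8 T cells rely on its respiratory capacity.

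Reads from mitochondrial genes can also match copies of mitochondrial DNA inserted in nuclear chromosomes, so the start of mt-Co2, which encodes a core subunit of complex IV, is shown beside its nuclear copies. The lines give bases 1 to 60 of mt-Co2 (mm10, MT:7013-7072, plus strand), of the pseudogene Gm28661 (chr1:24615506-24615565, minus strand) and of Gm13341 (chr2:22587903-22587962, minus strand), with capitals where a copy differs.
mt-Co2: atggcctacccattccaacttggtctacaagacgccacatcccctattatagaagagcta
Gm28661: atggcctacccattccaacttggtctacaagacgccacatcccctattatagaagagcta
Gm13341: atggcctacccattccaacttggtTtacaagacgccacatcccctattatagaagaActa
Gm28661 had no difference in this stretch, and none over the 681 of 684 bases of mt-Co2 that it covers. Gm13341 differed by C25T and G57A here, counted from 1 at the first base of mt-Co2, with the mt-Co2 base first.

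The copy of mt-Co2 on chromosome 1 stands in a run of pseudogenes (chr1:24611535-24616197, minus strand) that repeats a stretch of the mitochondrial genome. Its members matched mt-Atp6 over 678 bases, mt-Co3 over 783, mt-Nd4l over 294 and mt-Nd4 over 876 bases, each with 0 mismatches, and mt-Nd3 over 345 bases with 1. To measure this, each gene's transcript was divided into all windows of 51 bases and the share found exactly in a transcript of another gene was counted. It was 100% for mt-Co2, 99.86% for mt-Co3, 99.52% for mt-Atp6, 98.79% for mt-Nd4l and 97.99% for mt-Nd3. It was 62.2% for mt-Nd4, 50.64% for mt-Co1, 8% for mt-Nd2, 7.22% for mt-Nd5 and 0% for mt-Nd1, mt-Cytb, mt-Nd6 and mt-Atp8. All 5 genes that were nearly fully shared had low counts: mt-Co2, the highest of them, reached 8.23, 9.55 and 7.5 CPM in KO and 4.96, 6.23 and 6.28 CPM in WT. Per kilobase of transcript, mt-Co2 averaged 12.3 CPM in KO and 8.51 in WT, whereas mt-Co1, another core subunit of the same enzyme, averaged 3880 and 3160. mt-Atp8, which encodes a small ATP synthase subunit, was low as well, with 12 counts over all KO libraries, 5 in WT, 6 in EPZ and 8 in DMSO. It had no annotated partner among transcripts, and the stretch of chromosome 1 beside Gm28661 where a copy would lie holds no annotated gene. How reads with several matches were counted is not given in the sources used here, so the levels of these 6 genes are uncertain, as in part are those of mt-Nd4 and mt-Co1.

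**Figure D1:**
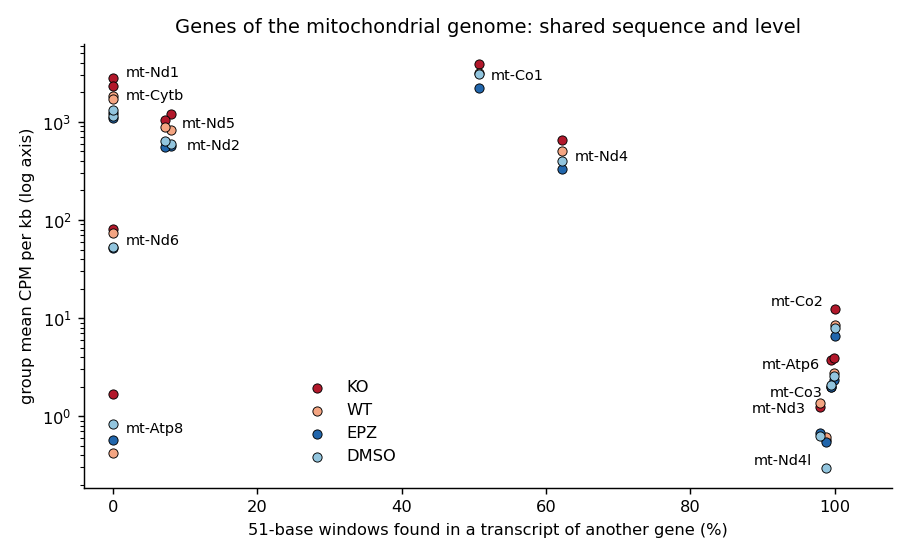
Share of 51-base windows found in a transcript of another gene (horizontal, percent) against mean level per kilobase (vertical, log axis) for the 13 mitochondrial members, with a point per group. The 5 genes with over 90% shared windows lie at the bottom right, below mt-Nd6 in every group, and mt-Atp8 lies at the bottom left.

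Of the 111 members, 96 passed the filter on low counts for KO against WT and 95 for EPZ against DMSO, and 15 and 16 were not tested. The 6 with no count in any library were Cox7b2, Cox8b and Cox8c, subunit isoforms known from other tissues, with Ndufa4l2, Ndufb4c and the second Atp5o ID. A count of 0 in all libraries allows up to 0.0159 CPM. The other untested members held few counts: the muscle isoforms Cox6a2 and Cox7a1 had 8 and 15 counts over the KO libraries, 2 and 13 in WT, 11 and 20 in EPZ and 6 and 12 in DMSO. Cox4i2, the isoform of Cox4i1 known from lung, had 4 counts in KO, 1 in WT, 1 in EPZ and 0 in DMSO. The ubiquitous isoforms carried the counts, with Cox4i1 at 326 ± 12.4 CPM in KO and 376 ± 25.9 in WT (SD, n = 3 each) and at 323 ± 12.9 in EPZ and 346 ± 20.6 in DMSO (n = 4 each). Cox6b2, known from testis, averaged 1.21 ± 0.305 CPM in KO and 1.41 ± 0.455 in WT, and was tested only for KO against WT (log2 fold change -0.295 ± 0.306, SE; adjusted p = 0.473, edgeR).

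Per kilobase, the most abundant members were mitochondrial. mt-Co1 averaged 3880 CPM per kb in KO, 3160 in WT, 2240 in EPZ and 3060 in DMSO, followed in WT by mt-Nd1 (1820), mt-Cytb (1700), mt-Nd5 (891), mt-Nd2 (826) and mt-Nd4 (504). The most abundant nuclear member on this scale was Atp5a1, the alpha subunit of ATP synthase, at 337 CPM per kb in KO, 316 in WT, 289 in EPZ and 263 in DMSO. mt-Nd6 is the only protein gene on the other strand of mitochondrial DNA. Apart from mt-Atp8, it was far lower than the other genes with few shared windows, at 80.1 CPM per kb in KO, 73.3 in WT, 51.5 in EPZ and 53.5 in DMSO.

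The summed level of the 13 mitochondrial members was 15764, 17046 and 13505 CPM in the KO libraries and 10209, 11433 and 13729.9 CPM in WT. KO 3 lay below WT 3, so the groups overlapped. It was 8364, 6804, 6975 and 9811 CPM in EPZ and 12975, 6193, 11476 and 8170.1 CPM in DMSO, where the DMSO libraries spread over the whole range of EPZ and beyond. The sum of the 98 nuclear members varied far less, from 9835 to 10127 CPM in KO, 9435 to 10385 in WT, 8985 to 9364 in EPZ and 8789 to 9446 in DMSO. By complex, the largest nuclear sum was that of complex V, with 4277 ± 80.7 CPM in KO and 4103 ± 186 in WT, and 3792 ± 64.3 CPM in EPZ and 3581 ± 126 in DMSO, where EPZ (3713 to 3848 CPM) and DMSO (3423 to 3698 CPM) did not overlap. A sum follows its most abundant genes. For the 17 complex V genes tested in EPZ against DMSO, the median log2 fold change was 0.01, and 10 values were positive. Of these 17, 1 had an adjusted p under 0.05 (edgeR), 5.88% beside 20.2% of all genes tested. Complex III held 924 ± 11.1 CPM in KO and 956 ± 43.8 in WT (SD, n = 3 each), and 877 ± 30.9 in EPZ and 888 ± 48.8 in DMSO (n = 4 each). The sum of complex II was 597 to 627 CPM in EPZ and 521 to 581.9 CPM in DMSO, also without overlap.

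**Figure D2:**
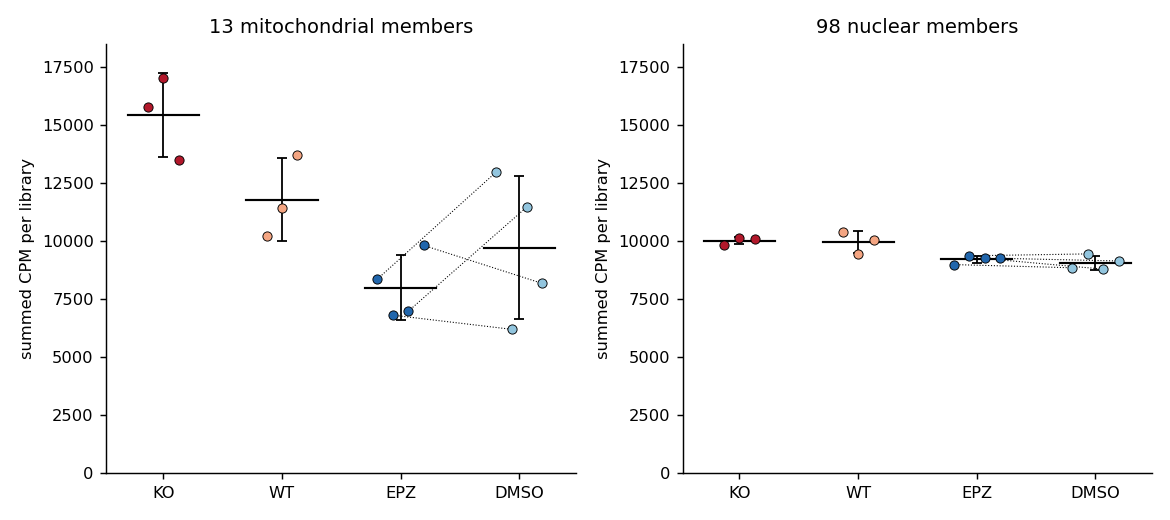
Summed CPM per library of the mitochondrial members (left) and the nuclear members (right), with a point per library, bars for mean and SD, and dotted lines joining the EPZ and DMSO libraries of an animal. The mitochondrial sums of KO run from 13505 to 17046 and overlap those of WT at KO 3 and WT 3, and the lines of 2 animals rise and those of the other 2 fall.

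KO was set against WT to see what goes with genetic loss of DOT1L. Several mRNAs of the mitochondrial genome rose in KO, while nuclear subunits changed by less and in both directions. Of the 10 mitochondrial members tested, 6 rose and 0 fell, against 20.3% of all genes tested that rose and 20.2% that fell. Their median log2 fold change was 0.51, against -0.0064 over all 11570 genes tested, and all 10 values were positive. With all 14 libraries in 1 fit, 2 were called, mt-Nd1 and mt-Nd2. The mitochondrial ribosomal RNA mt-Rnr2, not a member, fell (-0.23, adjusted p = 0.0245, edgeR), a call also lost in that fit. Of the 86 nuclear members tested, 6 rose and 8 fell, so that 16.3% were called against 40.4% of all genes tested, with a median of -0.0033 and a range from -0.39 to 0.29. Among nuclear members, 2 rose without KO 1 or WT 2, 3 without KO 2 and 11 without WT 1, and 5 fell without KO 1, 2 without KO 2 and 4 without WT 1. Libraries labelled KO also held more RNA of the NK genes, Itgax, Itgam and Cd14 and less of Cd8a, as given above. The part of these in the result was not tested.

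mt-Nd1 (MT:2751-3707, plus strand), a core subunit of the proton-pumping arm of complex I, stood at 2703, 2975 and 2328 CPM in KO and 1514, 1596 and 2120.2 CPM in WT. Every KO library lay above every WT library, and the log2 fold change was 0.62 ± 0.12 (SE; adjusted p = 0.000915, edgeR). mt-Nd2, another core subunit of that arm, had 1265, 1392 and 1068 CPM in KO and 777, 787 and 1009 CPM in WT, again without overlap (log2 fold change 0.54 ± 0.11, adjusted p = 0.00131). These calls of mt-Nd1 and mt-Nd2 were kept under every alternative run. mt-Cytb, the cytochrome b of complex III, had 2745, 2995 and 2309.8 CPM in KO and 1682, 1896 and 2261 CPM in WT. Its log2 fold change was 0.47 ± 0.11 (adjusted p = 0.00371), with no overlap, although KO 3 and WT 3 were close. With all 14 libraries in 1 fit, its adjusted p was 0.117.

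The other mitochondrial genes of high level overlapped between the groups. mt-Co1, the catalytic subunit of complex IV, had 6173, 6498 and 5334 CPM in KO and 4159, 4753 and 5716 CPM in WT, with WT 3 above KO 3. It rose by 0.31 ± 0.11 on the log2 scale (adjusted p = 0.0368, edgeR), and the call was lost without KO 1 (0.0847), KO 2 (0.104), WT 1 (0.0729) or WT 2 (0.0737). One fit of all 14 libraries gave mt-Co1 an adjusted p of 0.315. mt-Nd4 had 912, 1002 and 767 CPM in KO and 596, 687 and 801 CPM in WT, with a log2 fold change of 0.37 ± 0.11 (adjusted p = 0.0141), lost without KO 1 (0.0566), KO 2 (0.0822) or WT 1 (0.0562), and with all 14 libraries (0.223). mt-Nd5, at 1893 ± 238 CPM in KO and 1624 ± 169.9 in WT (SD, n = 3 each), did not pass (log2 fold change 0.23 ± 0.10, adjusted p = 0.0734), but passed without KO 3 (0.0187) or WT 3 (0.0254), with DESeq2 (0.0391) and without a filter on low counts (0.000505). Without the filter its log2 fold change was 0.227, so the smaller p came without a larger effect. mt-Nd6, on the other strand, had 37.9, 47.5 and 39.3 CPM in KO and 32.9, 41.2 and 40.1 CPM in WT (log2 fold change 0.15 ± 0.11, adjusted p = 0.276).

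Of the genes that share nearly all of their sequence with chromosome 1, mt-Co2 rose by 0.55 ± 0.16 on the log2 scale (adjusted p = 0.0145, edgeR), lost without KO 2 (0.107) and with all 14 libraries in 1 fit (0.149). mt-Atp6, the proton channel subunit of ATP synthase, had a log2 fold change of 0.80 ± 0.31 (adjusted p = 0.0549), from 2.55 ± 0.56 CPM in KO and 1.37 ± 0.597 in WT (SD, n = 3 each), and passed without KO 3 (0.0454) or WT 3 (0.0177) and without a filter (0.0253). mt-Co3 had 0.57 ± 0.24 (adjusted p = 0.0736). Without KO 2, 3 of the 10 mitochondrial members were called, and without any other library 4 to 8 were.

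**Figure D3:**
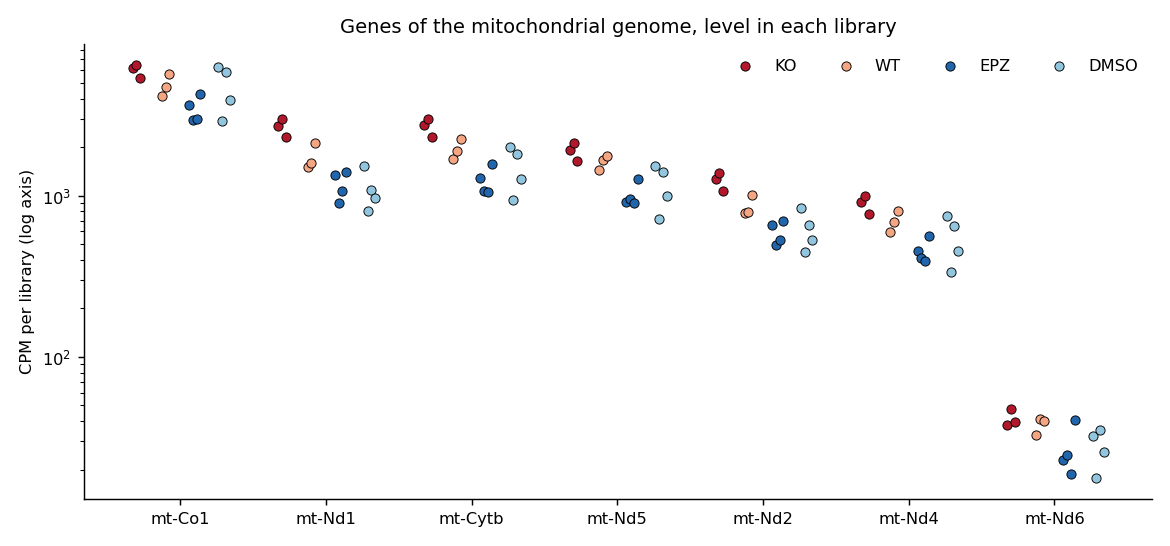
CPM in each library (log axis) of 7 mitochondrial members with no, few or some shared windows, in the order KO, WT, EPZ, DMSO. mt-Atp8 is not shown. The KO points of mt-Nd1, mt-Nd2 and mt-Cytb lie above all WT points, while EPZ and DMSO points overlap for every gene.

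Among nuclear subunits of complex I, 0 of 36 tested rose in KO and 5 fell, with a median log2 fold change of -0.04. This was 13.9% called, below the 40.4% of all genes tested. The 5 were Ndufa6, Ndufa8, Ndufb4 and Ndufv3, accessory subunits, and Ndufs8, a core subunit that holds iron-sulfur clusters. Ndufa6 (chr15:82350140-82354322, minus strand) had 52.7, 50.4 and 51.02 CPM in KO and 63.3, 55.7 and 65.0 CPM in WT, with every KO library below every WT library. Its log2 fold change was -0.26 ± 0.07 (SE; adjusted p = 0.0139, edgeR), lost without KO 2 (0.0886) or WT 3 (0.0602), and with all libraries thinned to the smallest total (0.179). Ndufv3 had 69.4, 73.7 and 74.8 CPM in KO and 86.3, 83.5 and 86.7 CPM in WT, without overlap, and fell by 0.23 ± 0.07 (adjusted p = 0.0145), lost without KO 1 (0.0742) or KO 2 (0.0621). The values of Ndufa8 (-0.23), Ndufs8 (-0.23) and Ndufb4 (-0.30) had adjusted p from 0.0168 to 0.0436. The call of Ndufs8 was lost without KO 2 (0.113) or WT 1 (0.0502), that of Ndufa8 without KO 1, KO 2, KO 3 or WT 1 (0.065 to 0.0958), and that of Ndufb4 without any library but WT 3 (0.0802 to 0.15). With thinned counts each of these calls was lost (0.0768 to 0.112). Ndufa8 (0.0598) and Ndufb4 (0.104) also lost theirs with DESeq2, and Ndufb4 with a minimum of 10 CPM (0.0649). Ndufb4 shares sequence with the pseudogene Ndufb4c, which held no count. Of the 8 assembly factors of the Ndufaf family none was called, and Ndufaf4, the highest in the mean of the 4 group means, had 0.17 ± 0.10 (adjusted p = 0.221).

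Complex II, succinate dehydrogenase, was near its level in WT. Sdhd, a membrane anchor, had 152, 156 and 155 CPM in KO and 141, 135 and 142 CPM in WT, did not overlap, and rose by 0.15 ± 0.06 on the log2 scale (adjusted p = 0.0418, edgeR). That call was lost without KO 1 (0.0783), KO 2 (0.0946), KO 3 (0.0711) or WT 2 (0.104). Sdhd also lost it with DESeq2 (0.0834), no filter (0.132), thinned counts (0.116) and all 14 libraries in 1 fit (0.0796). The flavoprotein Sdha (0.07 ± 0.05, adjusted p = 0.335), the iron-sulfur subunit Sdhb (-0.09 ± 0.08, 0.367) and the other anchor Sdhc (0.15 ± 0.07, 0.0976) did not pass. In complex III, 1 of 8 tested rose and 0 fell, 12.5% called beside 40.4% of all genes tested. It was the small subunit Uqcr11 (54.0 ± 3.09 CPM in KO and 47.0 ± 2.78 in WT; log2 fold change 0.20 ± 0.07, adjusted p = 0.0445). Its call was lost without KO 1 (0.0593), KO 2 (0.0919), KO 3 (0.116), WT 2 (0.108) or WT 3 (0.1). Uqcr11 also lost it with DESeq2 (0.103), no filter (0.0856) and thinned counts (0.13). Uqcrh, the highest in the mean of the 4 group means (196 CPM, with Uqcrc2 at 194), stood at -0.15 ± 0.07 (adjusted p = 0.120).

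Complex IV held the largest fall and the largest rise among nuclear members called, with 2 higher and 2 lower of 13 tested. This was 30.8% called, beside 40.4% of all genes tested. Cox7a2l (chr17:83501918-83517330, minus strand) is a relative of Cox7a2 known for a part in supercomplexes of complexes III and IV, which were not measured here. It had 229.5, 225 and 239 CPM in KO and 326, 310.0 and 278 CPM in WT. No KO library reached a WT library, and the log2 fold change was -0.39 ± 0.07 (SE; adjusted p = 0.000605, edgeR), called under every alternative with adjusted p up to 0.00931. About 13.69% of its windows are shared, mainly with the pseudogene Gm6969, which held 0 to 4 counts per library. Cox4i1, which regulates the enzyme, fell by 0.20 ± 0.06 (adjusted p = 0.0235), lost without KO 1 (0.138), KO 2 (0.151) or WT 1 (0.118), and with a minimum of 10 CPM (0.0626). Cox8a and Cox6a1, small subunits of the ubiquitous form, rose. Cox8a (chr19:7215153-7217616, minus strand) had 187, 185 and 186 CPM in KO and 168, 144 and 164 CPM in WT, a log2 fold change of 0.23 ± 0.06 (adjusted p = 0.0105). Cox6a1 had 162, 165 and 164 CPM in KO and 143, 116 and 148 CPM in WT, a log2 fold change of 0.27 ± 0.08 (adjusted p = 0.0143). For both genes every KO library lay above every WT library, the WT libraries were more spread, and the call was kept under every alternative. Ndufa4 (0.23 ± 0.09, adjusted p = 0.0601), Cox7a2 (0.15 ± 0.07, 0.0902), Cox7b (0.13 ± 0.09, 0.265) and Cox6b1 (-0.0011 ± 0.06, 0.992) did not pass.

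In complex V, 2 of 17 tested rose and 1 fell, 17.6% called beside 40.4% of all genes tested. Atp5h (chr11:115415689-115419962, minus strand), subunit d of the peripheral stalk, had 160.5, 171 and 164 CPM in KO and 214, 190.3 and 195 CPM in WT, with no overlap. It fell by 0.26 ± 0.06 on the log2 scale (adjusted p = 0.00439, edgeR), a call kept under every alternative. Atp5b, the catalytic beta subunit and the most abundant nuclear member by counts, had 1112, 1184 and 1131 CPM in KO and 1029, 973 and 1033 CPM in WT, also without overlap. It rose by 0.18 ± 0.06 (adjusted p = 0.0229), lost without KO 1 (0.0555), KO 2 (0.101) or WT 2 (0.069). Atp5g3, encoding subunit c of the rotor ring, rose by 0.22 ± 0.07 (adjusted p = 0.0185), lost without KO 1 (0.0725) or WT 2 (0.0663), while Atp5g1 (0.09 ± 0.08, adjusted p = 0.363) and Atp5g2 (-0.03 ± 0.06, 0.755), which encode the same mature protein, did not pass.

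**Figure D4:**
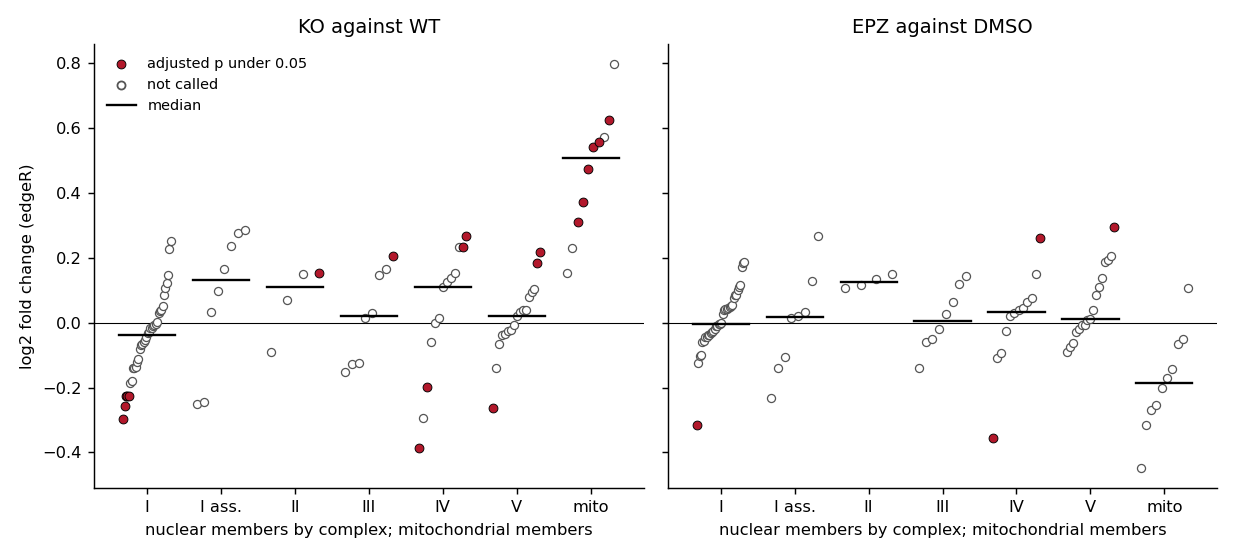
Log2 fold change of each tested member for KO against WT (left) and EPZ against DMSO (right), nuclear members by complex (I ass., assembly factors of complex I) and mitochondrial members last, with red points for an adjusted p under 0.05, white points for the rest and a line at each median. The mitochondrial medians lie at 0.51 on the left and -0.19 on the right, and the nuclear values stay between -0.39 and 0.29.

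EPZ was set against DMSO to see what goes with catalytic inhibition in cells without Cre or floxed alleles. None of the mitochondrial genes was called and few nuclear members were. Of the 10 mitochondrial members tested, 0 rose and 0 fell by edgeR at an adjusted p under 0.05, against 11.9% and 8.31% of the 12208 genes tested, and 0 had an unadjusted p under 0.05. DESeq2 called 0 in either direction as well. Of 85 nuclear members tested, 2 rose and 2 fell, so that 4.71% were called, against 20.2% of all genes tested, with a median log2 fold change of 0.03 against -0.0075. Of these, 1 rose without EPZ 2, EPZ 4, DMSO 1 or DMSO 2, and 1 fell without EPZ 1, EPZ 2, EPZ 4 or DMSO 2.

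The mitochondrial median was -0.19, and 0.02 without DMSO 1, and the animals did not go the same way. EPZ had 0.645 of the summed mitochondrial level of DMSO in animal 1 and 0.608 in animal 3, and 1.1 and 1.2 times that level in animals 2 and 4. Of the 10 tested members, 0 were higher in EPZ in animal 1, 8 in animal 2, 1 in animal 3 and 9 in animal 4. mt-Co1 had 3668, 2954, 2991 and 4254 CPM in EPZ and 6270.0, 2927, 5825 and 3919.6 CPM in DMSO, with DMSO 1 and DMSO 3 far above the other 6 libraries. Its log2 fold change was -0.45 ± 0.21 (SE; adjusted p = 0.164, edgeR; 95% interval -0.91 to 0.02), and it passed without DMSO 2 (0.0326) and without a filter on low counts (0.0439). mt-Nd1 had 1336, 899, 1070.3 and 1410.3 CPM in EPZ and 1538, 799, 1093 and 962 CPM in DMSO, with a log2 fold change of 0.11 ± 0.19 (adjusted p = 0.739; 95% interval -0.31 to 0.52). mt-Cytb stood at -0.27 ± 0.21 (adjusted p = 0.405) and mt-Nd2 at -0.05 ± 0.17 (adjusted p = 0.868). Within the mitochondrial counts, mt-Co1 made up 42.9% to 43.9% in EPZ and 47.3% to 50.8% in DMSO, and 38.1% to 39.5% in KO and 40.7% to 41.6% in WT. This share was looked at after the values were seen and is given without a test.

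Of the nuclear members, Cox7a2l had 273, 307, 326 and 262 CPM in EPZ and 347, 427, 364 and 360.2 CPM in DMSO, with every EPZ library below every DMSO library. It fell by 0.36 ± 0.09 on the log2 scale (adjusted p = 0.0154, edgeR) and was called under every alternative, with adjusted p up to 0.0479. Ndufa6 had 59.7, 57.8, 69.1 and 57.4 CPM in EPZ and 68.5, 90.3, 74.6 and 71.5 CPM in DMSO, where EPZ 3 lay above DMSO 1. It fell by 0.32 ± 0.10 (adjusted p = 0.0372), lost without EPZ 1 (0.0827), EPZ 2 (0.0945), EPZ 4 (0.0972) or DMSO 2 (0.0914). Cox7a2l and Ndufa6 were the members called in both comparisons, lower in each, and no member was called in opposite directions. Of all genes tested, 40.4% were called in KO against WT and 20.2% in EPZ against DMSO. How many were called in both, or in opposite directions, was not counted.

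Atp5g1 (chr11:96068852-96075670, minus strand), encoding subunit c of the ATP synthase rotor, had 62.4, 64.5, 60.8 and 68.3 CPM in EPZ and 52.1, 56.3, 46.7 and 53.8 CPM in DMSO. The groups did not overlap, the log2 fold change was 0.29 ± 0.07 (SE; adjusted p = 0.0149, edgeR), and it was called under every alternative. Ndufa4, a small subunit associated with complex IV, had 46.8, 52.0, 44.8 and 51.4 CPM in EPZ and 37.8, 40.1, 42.5 and 43.0 CPM in DMSO. It did not overlap either and rose by 0.26 ± 0.07 (adjusted p = 0.0292), lost without EPZ 2 (0.0794), EPZ 4 (0.0851), DMSO 1 (0.0844) or DMSO 2 (0.0725).

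With the animal as a block, 6 nuclear members rose instead of 2. The share of all genes called in that fit was not counted, so this gain has no background beside it. The 4 added were Atp5b (0.20, blocked adjusted p = 0.0249), Atp5o, the peripheral stalk subunit OSCP (0.21, 0.0322), Atp5k, subunit e (0.19, 0.0367), and Ndufa12, an accessory subunit of complex I (0.19, 0.0416). Without the block their adjusted p was 0.0625, 0.0775, 0.094 and 0.104. Atp5b had 944, 978, 934 and 998 CPM in EPZ and 864, 861, 757 and 897 CPM in DMSO, with every EPZ library higher. All 4 subunits of complex II had positive values between 0.11 and 0.15 and none passed, with adjusted p from 0.107 to 0.213 without the block and 0.0694 to 0.169 with it. Cox8a stood at -0.11 ± 0.05 (adjusted p = 0.179), at 142 ± 1.56 CPM in EPZ and 153 ± 9.53 in DMSO (SD, n = 4 each), where the groups did not overlap.

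**Figure D5:**
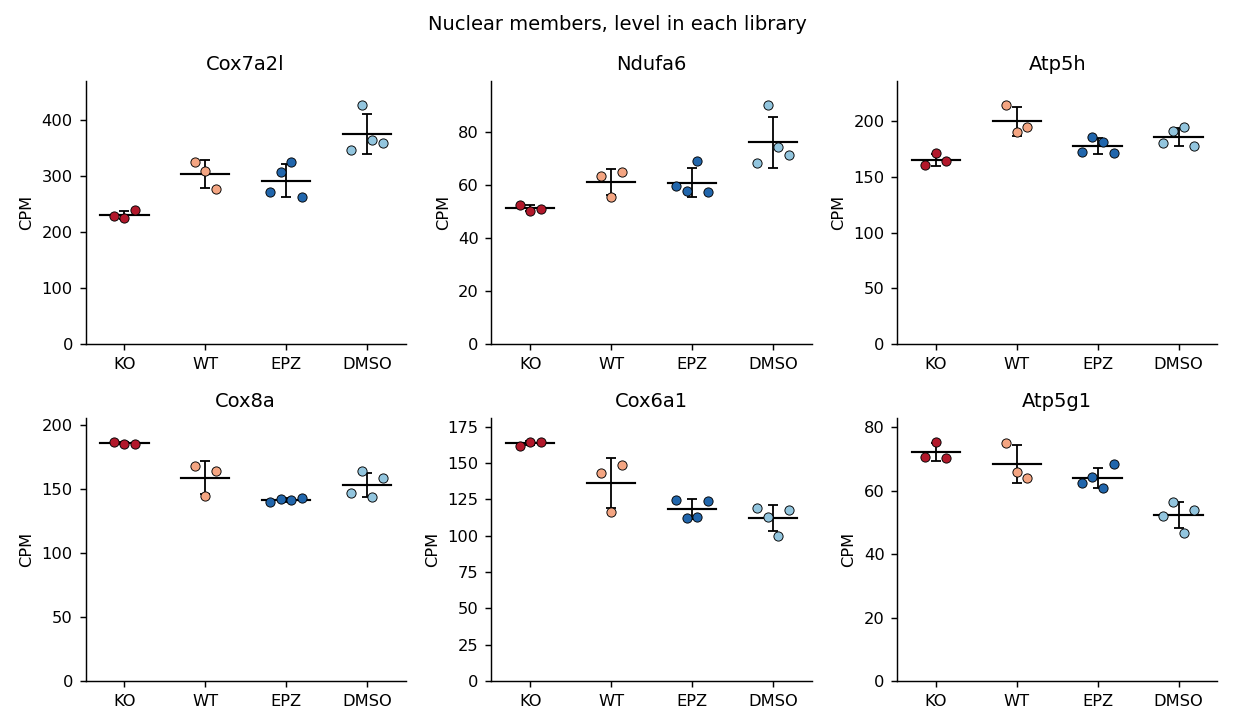
CPM in each library of 6 nuclear members, with bars for mean and SD, vertical axes from 0 and groups in the order KO, WT, EPZ, DMSO. Cox7a2l is lower in KO than in WT and in EPZ than in DMSO without overlap, Cox8a and Cox6a1 are higher in KO than in WT, and Atp5g1 is higher in EPZ than in DMSO.

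Whether the effects differed was tested with the contrast (KO minus WT) minus (EPZ minus DMSO) over all 14 libraries. Of 96 members tested, 1 had a higher value in the first comparison and 0 a lower one, against 3.29% and 4.31% of the 12639 genes tested, 7.6% in either direction. It was Cox8a, with a difference of 0.34 ± 0.08 on the log2 scale (SE; adjusted p = 0.0206, edgeR), lost without KO 1 (0.0538), KO 3 (0.0521) or WT 2 (0.0609). All 10 mitochondrial differences were positive, with a median of 0.67, against -0.03 for the nuclear members and -0.03 for all genes tested, but none passed. The adjusted p was 0.135 for mt-Co1 (0.75 ± 0.29), 0.144 for mt-Cytb (0.74 ± 0.29), 0.174 for mt-Nd2 (0.59 ± 0.25) and 0.287 for mt-Nd1 (0.51 ± 0.27, 95% interval -0.06 to 1.09). Without a filter on low counts 7 of them passed, among them mt-Co1 (1.55e-08) and mt-Nd1 (0.000771). That fit kept every gene with any count. Leaving out a library gave adjusted p no lower than 0.0193 for mt-Co1 and 0.14 for mt-Nd1. The cause of this gap was not tested, and the unfiltered values are not taken as stronger evidence. Without DMSO 2, 3 passed: mt-Co1 (0.0193), mt-Cytb (0.0239) and mt-Nd4 (0.0439). For Cox7a2l the difference was -0.04 ± 0.12 (95% interval -0.295 to 0.22) and for Ndufa6 0.06 ± 0.13 (-0.23 to 0.34). That of Cox7a2l turned positive without KO 2 (0.0203), WT 1 (0.0152), EPZ 3 (0.0538), DMSO 1 (0.0267) or DMSO 4 (0.00895), and that of Ndufa6 turned negative without WT 2 (-0.00602) or DMSO 2 (-0.011).

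The promoters of the members that changed in both comparisons, and of the member whose effects differed, are shown because they are the regions where a shared sequence could be looked for. Each line runs from 250 bases before to 50 after the start of the gene in RefSeq (GRCm38.p6), on the minus strand: Cox7a2l at chr17:83514284-83514583, Ndufa6 at chr15:82354242-82354541 and Cox8a at chr19:7217567-7217866. The Cox7a2l window lies inside the counted gene (chr17:83501918-83517330), so a start farther upstream was not searched. Capitals mark CTTCCGG, the reverse complement of the ETS motif searched.
Cox7a2l: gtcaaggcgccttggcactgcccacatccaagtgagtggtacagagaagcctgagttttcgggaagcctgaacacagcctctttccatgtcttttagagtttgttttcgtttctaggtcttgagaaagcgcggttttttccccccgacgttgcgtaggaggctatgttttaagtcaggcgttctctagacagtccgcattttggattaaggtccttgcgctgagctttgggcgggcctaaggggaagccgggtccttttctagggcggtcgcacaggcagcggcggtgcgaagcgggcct
Ndufa6: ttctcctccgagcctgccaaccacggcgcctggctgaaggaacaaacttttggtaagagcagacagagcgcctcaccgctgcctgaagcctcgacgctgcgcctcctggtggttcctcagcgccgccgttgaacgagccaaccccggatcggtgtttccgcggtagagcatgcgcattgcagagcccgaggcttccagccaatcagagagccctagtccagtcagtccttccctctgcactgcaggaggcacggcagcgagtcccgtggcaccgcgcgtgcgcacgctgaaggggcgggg
Cox8a: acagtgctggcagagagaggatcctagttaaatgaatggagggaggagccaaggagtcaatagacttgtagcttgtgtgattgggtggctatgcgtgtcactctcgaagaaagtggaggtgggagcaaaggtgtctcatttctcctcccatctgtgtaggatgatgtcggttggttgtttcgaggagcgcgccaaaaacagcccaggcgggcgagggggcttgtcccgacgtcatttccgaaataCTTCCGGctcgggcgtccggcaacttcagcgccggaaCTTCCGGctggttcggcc
The motifs searched on both strands were those of factors known for nuclear respiratory genes, the palindromic core of NRF1, CCGGAAG for ETS factors such as GABP, AAGATGGCG for YY1 and TGACGTCA for CREB (the CRE), none of which contains another. The Cox8a promoter held the ETS letters at positions -5 and 33 from the start. Those of Cox7a2l and Ndufa6 held none of the 4 in the exact spelling searched. Other spellings were not searched, so the absence of a site cannot be concluded from this. The Ndufa6 window holds stretches spelled nearly as the NRF1 core, which the search did not count. RefSeq gave 81 promoters for 76 of the members. The NRF1 letters were in 8.64% of them and in 0.971% of all 32851 promoters, the ETS letters in 23.5% and 8.86%, the YY1 letters in 9.88% and 1.4%, and the CRE letters in 4.94% and 1.79%. These are letters in a window, and binding was not measured.

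Genes around the chain were counted by list. Of 41 assembly factors outside the members, 1 rose and 5 fell in KO against WT, 1 rose and 3 fell in EPZ against DMSO, and 1 was lower in the difference. That is 14.6% called in KO and 9.76% in EPZ, beside 40.4% and 20.2% of all genes tested. The factor lower in the difference was Higd1a (-0.27, adjusted p = 0.0467), and leaving out any library but DMSO 3 ended that call (0.0691 to 0.125). Uqcc3, an assembly factor of complex III, averaged 23.2 ± 0.512 CPM in KO and 35.5 ± 4.03 in WT (SD, n = 3 each), and its log2 fold change was -0.60 ± 0.09 (SE; adjusted p = 0.000221, edgeR), and -0.31 ± 0.09 in EPZ against DMSO (0.0316). The call in EPZ was lost without EPZ 1, EPZ 2, EPZ 4, DMSO 2 or DMSO 3 (0.0608 to 0.0894). Tmem186, of complex I (-0.48, adjusted p = 0.0026), and Pet100, of complex IV (-0.46, 0.0038), fell in KO. With all libraries thinned to the smallest total, the calls of Tmem186 (0.0923) and Pet100 (0.0924) were lost. Cox15, which makes heme a, rose in KO (0.30, 0.0187), lost without KO 2 (0.0741), KO 3 (0.0655) or WT 1 (0.0733). Surf1, of complex IV, fell in both (KO -0.25, adjusted p = 0.0291; EPZ -0.35, 0.0213), in EPZ lost without EPZ 2 (0.0642), EPZ 4 (0.0558) or DMSO 2 (0.0623). In EPZ, Uqcc2 rose (0.29, 0.0233), lost without EPZ 2, EPZ 4, DMSO 2 or DMSO 4 (0.0542 to 0.0703), and Tmem126b fell (-0.50, 0.0396), lost without any library but EPZ 1 and DMSO 4 (0.0583 to 0.103).

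Of 29 genes that keep, transcribe and process mitochondrial DNA and RNA, 6 rose and 2 fell in KO, 2 rose and 2 fell in EPZ, and 0 differed between the effects. The share called was 27.6% in KO and 13.8% in EPZ, below the 40.4% and 20.2% of all genes. Tbrg4, a FASTK protein that binds mitochondrial mRNA, averaged 161 ± 6.49 CPM in KO and 138 ± 7.32 in WT (log2 fold change 0.23 ± 0.06, adjusted p = 0.011, edgeR), and 91.7 ± 12.3 CPM in EPZ and 75.4 ± 4.14 in DMSO (0.28 ± 0.09, 0.0449). The mitochondrial topoisomerase Top1mt (0.67, adjusted p = 0.0116) and Hsd17b10, part of the enzyme that cuts mitochondrial tRNAs (0.35, 0.0185), rose in KO, while Fastkd3 (-0.41, 0.0034) and the RNA-binding Grsf1 (-0.22, 0.018) fell. Of these, Top1mt was lost without KO 1 (0.0507), Hsd17b10 without KO 3 (0.0722) or WT 3 (0.0569), and Grsf1 without KO 2 (0.0932) or KO 3 (0.0581). The call of Tbrg4 in EPZ was lost without EPZ 3, EPZ 4 or any DMSO library (0.0544 to 0.117). In EPZ the exonuclease Rexo2 rose (0.22, adjusted p = 0.0174), lost without DMSO 1 (0.0687) or DMSO 2 (0.0618). Grsf1 (-0.19, 0.0498) and the mitochondrial poly(A) polymerase Mtpap (-0.20, 0.0472) fell in EPZ, Grsf1 lost without any library but EPZ 3 (0.0504 to 0.126) and Mtpap without any library (0.0592 to 0.133).

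Of 9 tested regulators of mitochondrial genes, 0 rose and 3 fell in KO, and 1 rose and 0 fell in EPZ, or 33.3% and 11.1% called beside 40.4% and 20.2% of all genes. The transcription factor Nrf1 had 51.4 ± 2.38 CPM in KO and 66.4 ± 2.26 in WT (log2 fold change -0.36 ± 0.07, adjusted p = 0.0012, edgeR), but 63.1 ± 2.66 CPM in EPZ and 59.9 ± 2.85 in DMSO (0.08 ± 0.06, 0.424), and its difference of effects passed (-0.44 ± 0.09, 0.005). The coactivator Ppargc1b (-0.50, adjusted p = 0.022) and Yy1 (-0.16, 0.0443) fell in KO, Ppargc1b lost without KO 3 (0.0775) or WT 2 (0.0525) and Yy1 without any library but KO 3 (0.0573 to 0.204). Hif1a, of the hypoxia response, rose in EPZ (0.35 ± 0.07, adjusted p = 0.005) and not in KO (-0.06 ± 0.05, 0.380), again with a difference that passed (-0.42 ± 0.09, 0.0085).

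Of 18 pyruvate dehydrogenase and citric acid cycle genes, 5 rose and 1 fell in KO, and 3 rose and 0 fell in EPZ (33.3% and 16.7% called, beside 40.4% and 20.2% of all genes). Dlat, a core subunit of pyruvate dehydrogenase, averaged 56.2 ± 0.960 CPM in KO and 35.4 ± 2.04 in WT (log2 fold change 0.66 ± 0.07, adjusted p = 9.35e-06, edgeR), with a difference of effects of 0.48 ± 0.10 (0.00694). In EPZ against DMSO Dlat stood at 0.18 ± 0.07 (adjusted p = 0.101), and passed with the animal as a block (0.0311). Dlst (0.25 in KO and 0.27 in EPZ) and Suclg2 (0.30 and 0.20) rose in both, Suclg2 in EPZ not without any one of the 8 libraries (0.0576 to 0.138). Idh3a rose in EPZ (0.24), and Pdha1 fell in KO (-0.20), lost without KO 1 (0.0581). Of 27 electron and inner membrane carriers, 9 rose and 2 fell in KO, 40.7% called against 40.4% of all genes, and 5 rose and 0 fell in EPZ, 18.5% called against 20.2%. Gpd2, the mitochondrial glycerol-3-phosphate dehydrogenase that passes electrons to ubiquinone, averaged 85.5 ± 5.59 CPM in KO and 39.5 ± 5.16 in WT, and 29.5 ± 3.91 CPM in EPZ and 18.2 ± 3.11 in DMSO. Its log2 fold changes were 1.105 ± 0.09 and 0.69 ± 0.13 (adjusted p = 7.91e-07 in KO and 0.00316 in EPZ). Cyc1, the cytochrome c1 of complex III, which the symbol rule does not take, rose in both comparisons, by 0.34 ± 0.06 in KO (adjusted p = 0.000648) and 0.27 ± 0.06 in EPZ (0.008). Cytochrome c itself, Cycs, rose too, by 0.24 ± 0.08 (adjusted p = 0.0289) and 0.38 ± 0.07 (0.0043). The phosphate carrier Slc25a3 rose in KO (0.27 ± 0.06, 0.0019), and Coq8a, needed for ubiquinone synthesis (-0.74), and the ADP/ATP carrier Slc25a4 (-0.17) fell, Slc25a4 lost without KO 1, KO 2, KO 3 or WT 1 (0.0569 to 0.109).

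Mitochondrial ribosomal proteins gave 7 higher and 5 lower of 77 tested in KO and 3 higher and 3 lower in EPZ. This was 15.6% and 7.79% called, beside 40.4% and 20.2% of all genes tested. Mrpl52 (0.45), Mrpl3 (0.29) and Mrps6 (0.60) rose and Mrpl58 (-0.41), Mrps16 (-0.33) and Mrpl43 (-0.30) fell in KO, as log2 fold changes. Mrps6 was lost without KO 1 (0.0605), KO 2 (0.059) or WT 3 (0.0534), and Mrpl43 without KO 2 (0.0704). In EPZ, Mrpl23 (0.27), Mrps2 (0.27) and Mrpl12 (0.19) rose and Mrpl58 (-0.25), Mrps35 (-0.30) and Mrpl9 (-0.27) fell. Mrpl12 was lost without any library (0.0549 to 0.151), Mrps35 without EPZ 1, EPZ 2, EPZ 4, DMSO 2 or DMSO 3 (0.0539 to 0.095), and Mrpl9 without any library but EPZ 3 and DMSO 3 (0.0564 to 0.0965). The difference of effects passed for Mrpl52 (0.47, adjusted p = 0.022) and Mrps6 (0.85, 0.0276). Mrpl52 was lost without KO 3 (0.0502) or WT 2 (0.0564), and Mrps6 without KO 1, KO 2, WT 1 or WT 3 (0.0536 to 0.0734). Of the 24 mitochondrial ribosomal and transfer RNAs, 2 were tested. The large ribosomal RNA mt-Rnr2 went against the mitochondrial mRNAs, at 517 ± 56.9 CPM in KO and 613 ± 23.0 in WT (log2 fold change -0.23 ± 0.08, adjusted p = 0.0245, edgeR), lost without KO 1 (0.115), KO 3 (0.128) or WT 3 (0.056). All 14 libraries in 1 fit gave it an adjusted p of 0.329. In EPZ it stood at 333 ± 45.4 CPM and in DMSO at 254 ± 79.1 (0.39 ± 0.18, adjusted p = 0.156). mt-Rnr1, the small ribosomal RNA, was at 207 ± 1.25 CPM in KO and 212 ± 21.1 in WT (adjusted p = 0.754).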

How the data were processed

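Each library's column holds whole-number read counts by Ensembl gene, as the authors deposited them, unnormalized. Per the submitters' processing notes, TopHat2 2.1, Bowtie 1.1 and HTSeq were used with mm10; the strand setting, annotation release and handling of reads with several matches are not stated in them. Per the labels' protocols, RNA with an integrity number above 8 was made into TruSeq Stranded mRNA libraries. Of 55486 genes, 54906 have the coordinates of GENCODE mouse release M21, which gave exon lengths.

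Tests used edgeR 4.0.16 under R 4.3.3 (TMM, filterByExpr with a minimum count of 10 and total of 15, quasi-likelihood F-test), with Benjamini-Hochberg adjustment over all genes tested and calls at 0.05. Standard errors are fold changes divided by the root of F, and 95% intervals use the t distribution with the test's degrees of freedom. CPM share 1 TMM scale over all 14 libraries. No replicate pair was a copy (chi-square per degree of freedom 2.05 to 18.1). The fits were tested on simulated data. Labels call replicates biological without naming the cultures.

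Alternatives were DESeq2 1.42.0, its size factors, no filter or 10 CPM, library sizes without mitochondrial genes, thinned counts, a replicate block, all libraries in 1 fit, and leaving out each library. EPZ and DMSO pair by animal, from the library names; the correlations of paired deviations were 0.538, -0.0525, -0.112 and 0.422.

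The members and lists were chosen with earlier results of these data known. Named were all mitochondrial protein genes, the Sdh genes, up to 12 called nuclear members per direction, the most abundant nuclear member of each complex, tissue isoforms, up to 3 called genes per list and direction, and Dot1l, Xist and Ddx3y; Atp5a1, Atp5g2, the genes called only with the block and the untested members were added after their values were seen. A gene that this rule names is not reported here. The assembly factor Coa1 was not in the table under that symbol.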

Additional observations from a re-analysis of the deposited data

Results flagged for a closer look

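Of 58 groups of 4 libraries checked, 3 held a library far from the other 3, and chance alone flags about 1 in 20. mt-Nd5 stood at 1264 CPM in EPZ 4, against 905 to 949 CPM in the other EPZ libraries. Uqcr11 stood at 46.8 CPM and Ndufb4 at 20.3 CPM in DMSO 3, each the highest of the DMSO libraries.

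A difference between the effect of KO against WT and that of EPZ against DMSO passed the test of the difference itself for 7 genes, as log2 values with edgeR: Cox8a (0.34), the hypoxia-induced complex IV factor Higd1a (-0.27), Nrf1 (-0.44), Hif1a (-0.42), Dlat (0.48), Mrpl52 (0.47) and Mrps6 (0.85). These calls made up 1.04% of members tested, 2.44% of assembly factors and 2.6% of mitochondrial ribosomal proteins, beside 7.6% of all 12639 genes tested. They made up 5.56% of the citric acid cycle list and 22.2% of the 9 regulators, and 0% of the other lists. Higd1a kept its call under 1 of 21 alternatives, with adjusted p up to 0.373, and Hif1a and Dlat kept theirs under all 21. Cox8a lost its call without KO 1, KO 3 or WT 2, as given above, Mrpl52 without KO 3 (0.0502) or WT 2 (0.0564), Mrps6 without KO 1 (0.0708), KO 2 (0.0536), WT 1 (0.0599) or WT 3 (0.0734), and Nrf1 with thinned counts (0.106).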

How the results depend on the processing

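Of 80 named gene results called, 30 were called under every alternative run and 0 changed direction; of 28 not called, 10 passed under some alternative. For KO against WT, 6 nuclear members rose, with 10 under a minimum of 10 CPM, 3 with the replicate number as a block, and 2 to 11 leaving out a library (2 without KO 1 or WT 2, 3 without KO 2, 11 without WT 1); 8 fell, with 4 after thinning and 2 to 9 leaving out a library (2 without KO 2, 4 without WT 1, 5 without KO 1). The 6 mitochondrial members that rose became 2 with all 14 libraries in 1 fit and 3 to 8 leaving out a library. The replicate numbers of KO and WT only name samples: the correlations of same-numbered deviations were 0.0485, -0.152 and -0.15, and no library correlated best with its own number. For EPZ against DMSO, 2 nuclear members rose, with 1 without a filter, 4 with all 14 libraries, 6 with the animal as a block, and 1 to 3 leaving out a library; 2 fell, with 1 after thinning and 1 to 2 leaving out a library. Of the mitochondrial members, 1 fell without a filter and 0 to 1 leaving out a library. The nuclear median ran from 0.00732 to 0.0258 leaving out a library. The mitochondrial median ran from -0.339 to 0.0205, positive without DMSO 1, and single genes crossed 0, over ranges of -0.0253 to 0.309 for mt-Nd1, -0.183 to 0.125 for mt-Nd2, -0.513 to 0.017 for mt-Co2, -0.278 to 0.122 for mt-Atp6, -0.302 to 0.107 for mt-Co3 and -0.322 to 0.0681 for mt-Nd6. For the difference of effects, the nuclear count of 1 was 0 without a filter and 0 to 1 leaving out a library, and the mitochondrial count of 0 was 7 without a filter and 0 to 3 leaving out a library. The nuclear median was 0.0161 under 10 CPM and ran from -0.0636 to 0.0245 leaving out a library. Under 10 CPM the differences of Cox7a2l and Ndufa4 were 0.00622 and 0.00995, and that of Ndufa4 0.0802 after thinning; leaving out a library they ran from -0.101 to 0.0538 for Cox7a2l, -0.011 to 0.154 for Ndufa6 and -0.132 to 0.0565 for Ndufa4. The cause was not tested. Precision is limited by 3 or 4 libraries a group and by the smallest library, of 5643724 counts.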
